A study of Mus musculus with 18 samples.

Results

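The NF-kB feedback inhibitors are 8 genes (Nfkbia, Nfkbib, Nfkbie, Tnfaip3, Tnip1, Tnip3, Irak3 and Tnfaip2), taken by gene symbol from the 12205 genes of the authors' deposited table. All 8 are in that table. The study asked how primary mouse astrocytes change their mRNAs and the translation of these mRNAs in response to inflammatory cytokines. Wild-type astrocytes from newborn C57BL mice, of both sexes pooled, were cultured without treatment for 120 h, or for 96 h followed by 24 h, or 72 h followed by 48 h, with 20 ng/ml of TNFα together with 0.25 ng/ml of IL-1β. Each lysate was divided between RNA-seq and ribosome profiling, which sequences the mRNA fragments of 26 to 34 nt that ribosomes protect from RNase I (footprints), giving 18 libraries in 6 groups of 3 batches. The table holds 1 log2 fold change against untreated cells per gene for RNA, for footprints and for translation efficiency (how far footprints changed beyond RNA) at each time. Depth and batch-to-batch spread are thus unknown, no difference was tested, and whether neighbours in an order of genes differ beyond their error could not be determined.

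NF-kB is a family of dimeric transcription factors that I-kappa-B proteins hold in the cytoplasm. TNF and IL-1 receptors signal through ubiquitin-linked complexes to the kinase IKK, which marks I-kappa-B proteins for degradation and so frees NF-kB to enter the nucleus. Among the genes NF-kB then induces are its own inhibitors, which end or dampen the response. The members act at different steps. IκBα, IκBβ and IκBε (Nfkbia, Nfkbib and Nfkbie) bind NF-kB itself. A20 (Tnfaip3) edits the ubiquitin chains of the receptor complexes with partners such as ABIN-1 (Tnip1). ABIN-3 (Tnip3) belongs to the same family as ABIN-1. IRAK-M (Irak3) blocks the kinases below the IL-1 receptor and Toll-like receptors. Tnfaip2 is a TNF-induced gene whose protein, M-Sec, is known for its part in membrane nanotubes rather than as a core inhibitor of NF-kB.

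The promoters are shown first, with the kappaB motif through which NF-kB acts (3 G, a purine, any 2 bases, 2 pyrimidines and 2 C, searched on both strands). The members were chosen as NF-kB feedback genes, and the part of such motifs in their changes was not tested. Windows of 250 bases before to 50 after the start came from RefSeq on GRCm38.p6, and all 8 genes matched by symbol, Tnfaip3 and Irak3 with 2 windows each. The 150 bases before the start are given for the 5 genes with a match other than Tnfaip2, and for Nfkbib, which had none. Matches are in capitals and overlapping matches are joined. They lie on chr12:55492648-55492797 (minus strand) for Nfkbia, chr17:45555550-45555699 (plus strand) for Nfkbie, chr10:19015411-19015560 (minus strand) for the first start of Tnfaip3, chr11:54962941-54963090 (minus strand) for Tnip1, chr6:65590248-65590397 (plus strand) for Tnip3 and chr7:28766645-28766794 (minus strand) for Nfkbib.
Nfkbia: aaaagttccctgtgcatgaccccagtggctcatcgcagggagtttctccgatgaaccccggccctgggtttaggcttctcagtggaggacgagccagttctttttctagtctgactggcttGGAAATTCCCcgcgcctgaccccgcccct
Nfkbie: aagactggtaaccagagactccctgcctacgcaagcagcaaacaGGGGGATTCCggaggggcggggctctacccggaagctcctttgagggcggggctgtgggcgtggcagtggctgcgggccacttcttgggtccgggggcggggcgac
Tnfaip3: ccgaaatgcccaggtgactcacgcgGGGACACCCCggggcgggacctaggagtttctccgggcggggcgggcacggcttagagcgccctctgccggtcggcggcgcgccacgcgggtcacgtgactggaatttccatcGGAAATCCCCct
Tnip1: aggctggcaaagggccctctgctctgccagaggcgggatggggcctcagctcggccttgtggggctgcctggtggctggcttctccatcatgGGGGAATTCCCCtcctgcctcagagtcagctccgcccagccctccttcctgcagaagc
Tnip3: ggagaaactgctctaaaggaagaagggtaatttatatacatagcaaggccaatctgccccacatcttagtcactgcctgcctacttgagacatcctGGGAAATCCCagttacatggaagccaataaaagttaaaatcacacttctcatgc
Nfkbib: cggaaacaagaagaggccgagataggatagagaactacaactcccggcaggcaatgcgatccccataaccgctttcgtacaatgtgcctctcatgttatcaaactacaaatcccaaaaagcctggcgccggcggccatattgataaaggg

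At least 1 match stood in the window of 6 of the 8 genes, where 12.6% of the 9368 measured genes with a window, and 8.46% of all 32851 windows, held one. Among the 669 genes with a window whose RNA was higher by at least 1 at 24 h the share was 20.0%. The match of Nfkbia ended 20 bases before the start, and that of Tnip3 began 54 bases before it. Tnip1 had overlapping matches on both strands that together span GGGGAATTCCCC, from 58 to 47 bases before the start. Tnfaip3 had 2 separate matches at its first start, beginning 125 and 12 bases before it, and no match at its second. In Tnfaip2 the match read GGAGGGCCCC and began 24 bases before the start used for its window, at 111442661 on chromosome 12. The RefSeq span of Tnfaip2 begins upstream of that start, at 111442450, so this match lies inside the gene span. The windows of Nfkbib and both windows of Irak3 held no match to these letters. A match to letters is not a measurement of binding, and a looser form (3 G, any 5 bases, 2 C) was found in 7 of the 8 genes and in 73.2% of measured genes.

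**Figure D1:**
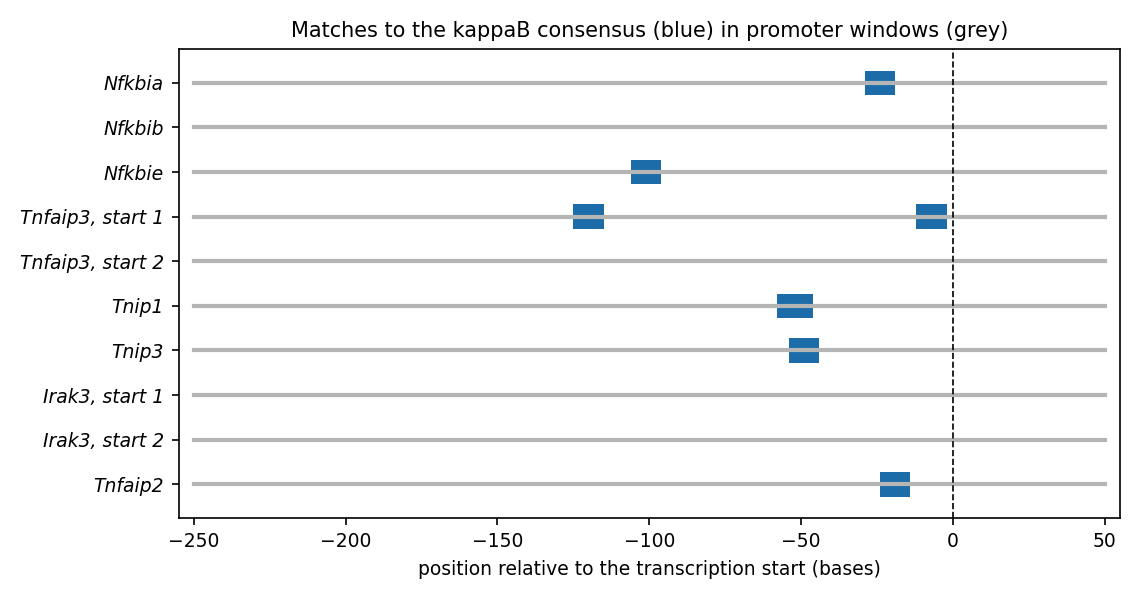
Positions of kappaB matches (blue) in the promoter windows (grey lines, 250 bases before to 50 after each RefSeq start) of the 8 genes, in bases from the start. The 7 joined matches, in 6 genes, all lie before the transcription start used for their window, between 125 and 3 bases from it. For Tnfaip2 that start and the match lie inside the gene span.

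Nearly all of these genes were far higher after cytokines. RNA of 7 of the 8 was higher by at least 1 on the log2 scale at 24 h, where 7.54% of all genes were (and 9.55% were lower, against 0 of the 8), and 7 of 8 at 48 h, where 8.11% were. Footprints of all 8 were higher by at least 1 at both times, against 7.87% of all genes at 24 h and 8.13% at 48 h. The exception in RNA at each time was Nfkbib. For the 8 genes the RNA median was 4.44 at 24 h and 4.19 at 48 h and the footprint median 4.33 and 4.15, while the medians over all genes lay between -0.03 and 0.01. In RNA at 24 h the order from the highest was Tnip3, Tnfaip2, Irak3, Tnfaip3, Nfkbie, Nfkbia, Tnip1 and Nfkbib, and it was the same at 48 h. In footprints only Irak3 and Tnfaip3 changed places, at both times. The smallest gaps in RNA were 0.13 between Irak3 and Tnfaip3 at 24 h and 0.10 between Tnfaip2 and Irak3 at 48 h. These are changes and not levels, so a higher value does not mean a more abundant mRNA.

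**Figure D2:**
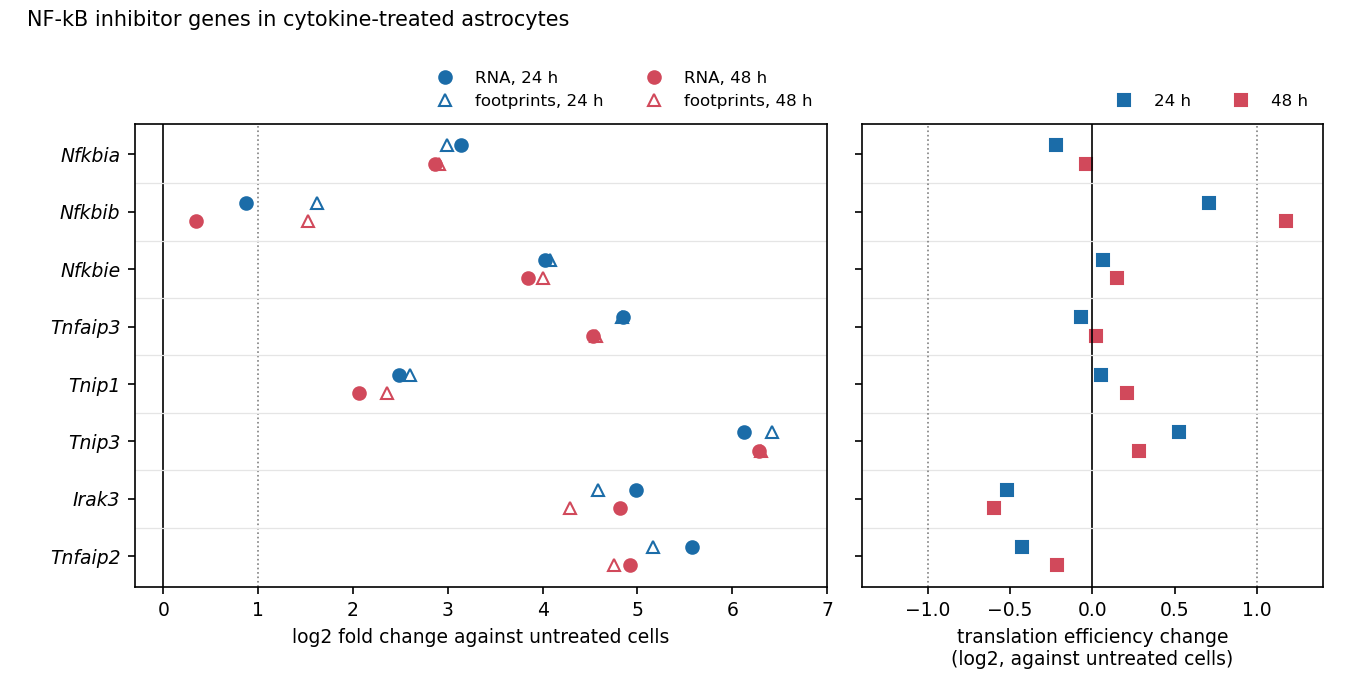
Log2 fold changes against untreated cells of the 8 genes in RNA (circles) and footprints (triangles), and of translation efficiency (squares, right), at 24 h (blue) and 48 h (red); dotted lines mark values of 1 and -1. Nfkbib is the only gene with RNA below 1, and the only one with a translation efficiency above 1, at 48 h.

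The I-kappa-B genes covered a wide range. Nfkbia, the classical feedback target that is degraded and remade in each round of NF-kB activity, lies on chromosome 12 from 55489409 to 55492647 (GRCm38.p6). In the authors' deposited table its RNA stood at 3.14 at 24 h and 2.87 at 48 h, or 8.82-fold and 7.30-fold the untreated level. The authors' deposited table has footprints of Nfkbia at 2.99 and 2.91, so RNA and footprints were higher to nearly the same degree. Nfkbie (chromosome 17 from 45555700 to 45563169) codes for IκBε, which in other cells follows IκBα with a delay. In the authors' deposited table it stood at 4.02 and 3.85 for RNA and at 4.08 and 4.01 for footprints. The change of Nfkbie thus exceeded that of Nfkbia in all 4 values, by 1.84-fold in RNA at 24 h and 1.97-fold at 48 h, and by 2.12-fold and 2.14-fold in footprints.

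Nfkbib (chromosome 7 from 28758251 to 28766644) had a different pattern. IκBβ is also degraded on IKK signalling, but its gene is known as a weaker target of NF-kB than that of IκBα. Its RNA was at 0.87 at 24 h and 0.34 at 48 h in the authors' deposited table, while its footprints were at 1.62 and 1.53. On a linear scale RNA was 1.83-fold and then 1.27-fold the untreated level, and footprints were 3.08-fold and 2.89-fold. Translation efficiency of Nfkbib was 0.71 at 24 h and 1.18 at 48 h in the authors' deposited table, ranks 678 and 177 of 12205 genes from the highest. It was the single member past 1 in translation efficiency, with 0 of 8 higher at 24 h, where 1.79% of all genes were, and 1 of 8 at 48 h, where 2.85% were, and no member was lower by at least 1, against 1.32% and 1.71% of all genes. Genes with footprints higher by at least 1 but RNA within 1 of untreated numbered 182 at 24 h and 180 at 48 h, and 89 at both times, which is 10.6% of the 839 genes with higher footprints at both. Nfkbib is among these 89.

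Nfkbib also lies in a gene-dense region. It has 46 protein-coding genes within the 1000000 bp around it, itself included, whereas the other 7 genes have 6 to 19. Across 11542 genes translation efficiency was higher where this gene density was higher, at a Spearman's rho of 0.34 at 24 h and 0.38 at 48 h, a description over genes of the same libraries. In the densest quintile (2308 other genes) the median translation efficiency was 0.21 at 24 h and 0.26 at 48 h, and 88.6% and 96.9% of its genes lay below Nfkbib. The part of gene density in the value of Nfkbib was not tested. Its span overlaps Ccer2 in RefSeq, which was not analysed here.

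The genes of A20 and of the ABIN proteins differed mainly in the size of their change. Tnfaip3 (chromosome 10 from 19000910 to 19015410) was listed in the authors' deposited table with RNA values of 4.85 and 4.53 and footprint values of 4.83 and 4.56. Its RNA was 28.9-fold and its footprints 28.5-fold the untreated level at 24 h. Tnip1 (chromosome 11 from 54910787 to 54962956) had the lowest change after Nfkbib, with RNA of 2.49 and 2.06 and footprints of 2.60 and 2.35 per the authors' deposited table. Tnip3 (chromosome 6 from 65590398 to 65634040) had the highest, with RNA of 6.12 and 6.28 and footprints of 6.42 and 6.30 per the authors' deposited table. At 24 h Tnip3 ranked 73 from the highest of 12205 genes in RNA and 49 in footprints. The changes of the 2 ABIN genes thus lay 12.4-fold apart in RNA at 24 h and 18.6-fold apart at 48 h. Tnip2, which codes for ABIN-2, was within 1 throughout, with RNA of 0.39 and 0.31 and footprints of 0.34 and 0.37 listed in the authors' deposited table.

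Irak3 (chromosome 10 from 120141648 to 120202130), known mainly as a brake on IL-1 and Toll-like receptor signalling in monocytes and macrophages, had RNA values of 4.98 and 4.81 per the authors' deposited table. Its footprints lay lower at both times, at 4.58 and 4.29 in the authors' deposited table, and its deposited translation efficiency was the lowest of the 8 genes, at -0.52 and -0.60. Taken as footprints minus RNA at 24 h, however, Tnfaip2 (-0.41) lay just below Irak3 (-0.40). Of 10 markers of microglia and macrophages, 3 were among the genes of the table. Cd68 was at 1.80 at 24 h and 0.56 at 48 h in RNA, Adgre1 at 0.57 and 7.55 and Tmem119 at 0.18 and 0.09 in the authors' deposited table. Footprints of Adgre1 were at 0.73 and 4.62 there. Its deposited translation efficiency at 24 h was -1.79, although its footprint value exceeded its RNA value. The values of Adgre1 are therefore uncertain, and how near the floor they lie is unknown. Between 24 h and 48 h the RNA value of Irak3 differed by -0.17, and those of Adgre1, Cd68 and Tmem119 by 6.98, -1.24 and -0.09. The part of such cells in the values of Irak3 or Tnip3 was not tested, and in bulk samples more cells of a type and more RNA per cell cannot be told apart. For other cell types, 4 of 6 endothelial markers were in the table (in RNA at 24 h, 1 passed 1 upward and 3 passed -1 downward), 6 of 6 fibroblast markers (3 higher, 0 lower), 3 of 6 oligodendrocyte markers (1 higher, 1 lower) and 4 of 6 neuronal markers (0 higher, 2 lower). All 10 astrocyte markers were in the table, 5 of them lower and 2 higher by at least 1 in RNA at 24 h, with a range from -2.69 for Aldoc to 2.17 for Slc1a2 in the authors' deposited table.

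Tnfaip2 (chromosome 12 from 111442450 to 111455018) was, among the 8 genes, second to Tnip3 in every RNA and footprint value. The authors' deposited table gives 5.58 at 24 h and 4.92 at 48 h for RNA, and 5.16 and 4.75 for footprints. RNA was thus 47.7-fold and then 30.2-fold the untreated level, the largest difference between the times among the 8 genes.

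**Figure D3:**
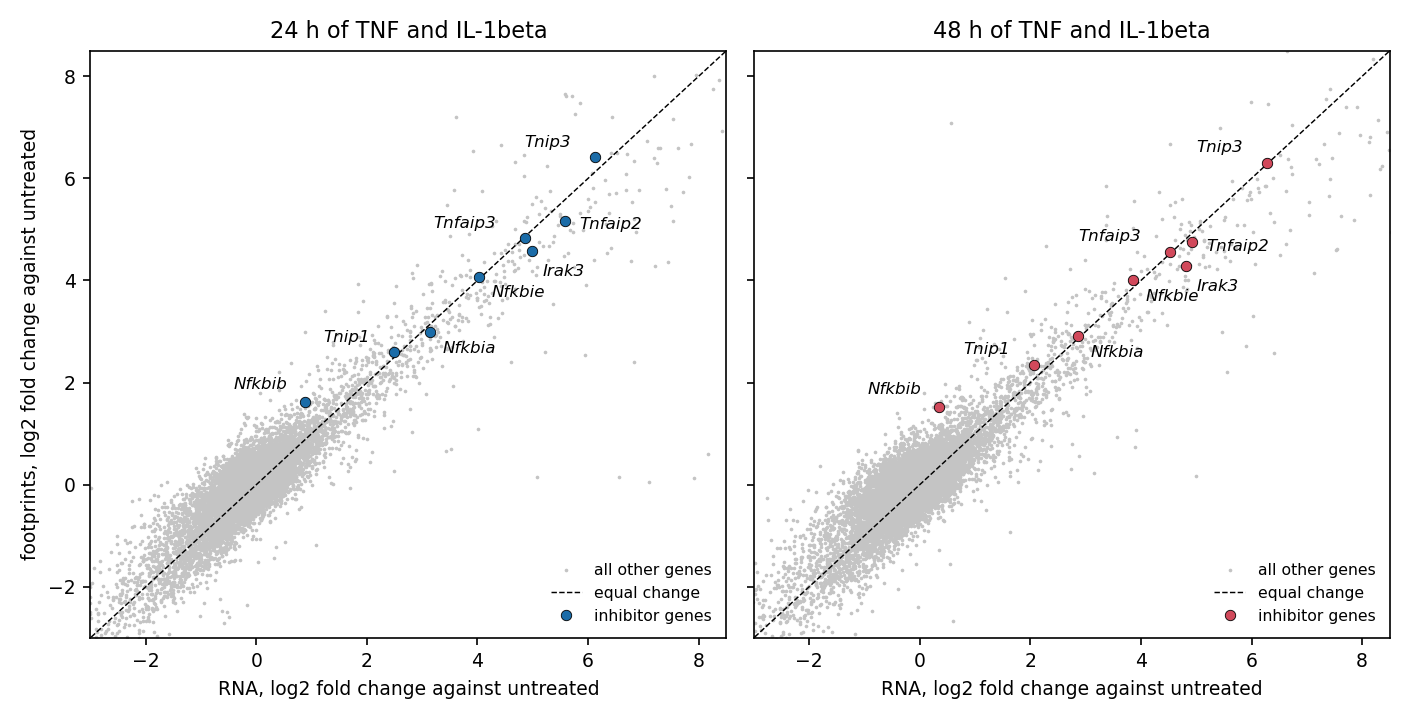
Footprint against RNA log2 fold changes of all genes (grey) and of the 8 genes (coloured) at 24 h (left) and 48 h (right), with a dashed line of equal change; genes outside the axes are not drawn. Most of the genes lie along the line, and Nfkbib lies above it, with RNA of 0.87 and 0.34 beside footprints of 1.62 and 1.53.

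Leaving Nfkbib aside, translation efficiency of the 7 strongly induced genes lay between -0.52 and 0.52 at 24 h and between -0.60 and 0.29 at 48 h. The medians of the 7 were -0.07 and 0.02. From the highest of 12205 genes, Irak3 ranked 11081 and 11269, Tnfaip2 10500 and 8025, and Tnip3 1338 and 3067. Nfkbia, Nfkbie, Tnfaip3 and Tnip1 ranked between 3597 and 8404 at both times. The 455 other genes with an RNA value of at least 2 at 24 h had a median translation efficiency of -0.27 (interquartile range over genes -0.62 to 0.16), and 14.7% of them were lower by at least 1. At 48 h the median of 470 such genes was -0.30, and 14.9% were lower by at least 1. Each member was then set beside the other genes whose RNA value lay within 0.5 of its own. Of the 7, Nfkbie, Tnfaip3, Tnip1, Tnip3 and Tnfaip2 lay above the median of their like genes at both times, Irak3 lay below it at both, and Nfkbia lay below it at 24 h and above it at 48 h. Tnip3 was farthest, above 27 of 30 like genes at 24 h (median -0.69) and 28 of 31 at 48 h (median -0.45). Its deposited translation efficiency of 0.52 and 0.29 exceeded its own footprint minus RNA value, 0.30 and 0.03, by 0.23 and 0.26, a larger gap than in 94.1% and 94.4% of genes. Nfkbib lay above 97.9% of 1739 like genes at 24 h and above 99.7% of 6085 at 48 h.

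**Figure D4:**
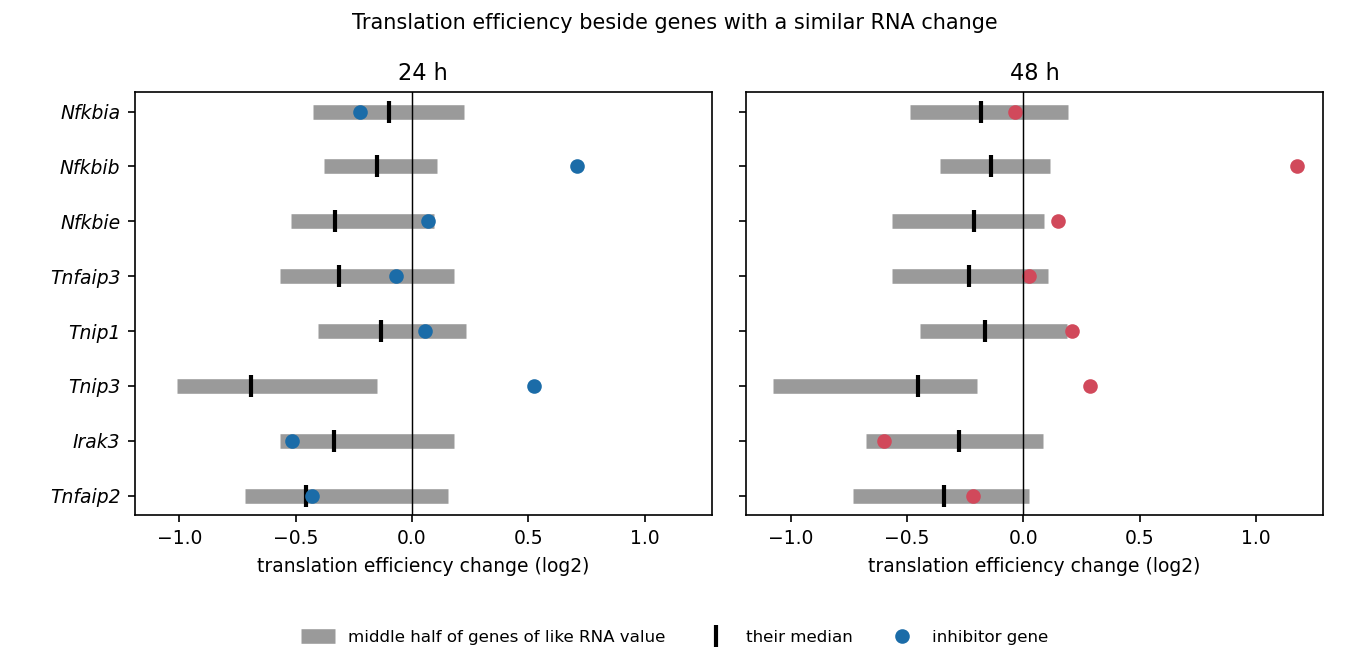
Translation efficiency change (log2) of the 8 genes (coloured points) at 24 h and 48 h beside the interquartile range (grey bars) and median (black ticks) of other genes with an RNA value within 0.5 of theirs. Nfkbib and Tnip3 lie above the grey bars at both times, and Nfkbie and Tnip1 do so at 48 h.

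Between 24 h and 48 h most values of the 8 genes moved slightly down. Values at 24 h and 48 h share their untreated libraries. In RNA the 48 h value was below the 24 h value in 7 of 8 genes (6228 of all 12205 genes), with a median difference of -0.30. In footprints it was below in 8 of 8 (6030 of all 12205 genes), with a median difference of -0.18. None of these differences reached 1 in either direction, as they did in 1.56% of all genes in RNA and 1.79% in footprints. The largest were those of Tnfaip2 (-0.66 in RNA and -0.41 in footprints). Counted from the highest of 12205 genes, the RNA difference ranked 11964 for Tnfaip2, 11833 for Nfkbib, 11615 for Tnip1 and 11252 for Tnfaip3, toward the most negative end. Tnip3 alone was higher in RNA at 48 h, by 0.16. For the I-kappa-B genes the footprint differences were -0.08 for Nfkbia, -0.09 for Nfkbib and -0.07 for Nfkbie, beside -0.27, -0.53 and -0.17 in RNA. The 455 other genes with RNA of at least 2 at 24 h had median differences of -0.10 (RNA) and -0.12 (footprints), and 57.6% and 58.7% of them lay below 0. Translation efficiency was higher at 48 h in 6 of the 8 genes, most in Nfkbib (0.47), and lower in Tnip3 (-0.24) and Irak3 (-0.08), and 0 of 8 differences reached 1, as 1.18% of all genes did. It was above 0 in 6307 of all 12205 genes, and below 0 in 47.5% of the 455 other induced genes.

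**Figure D5:**
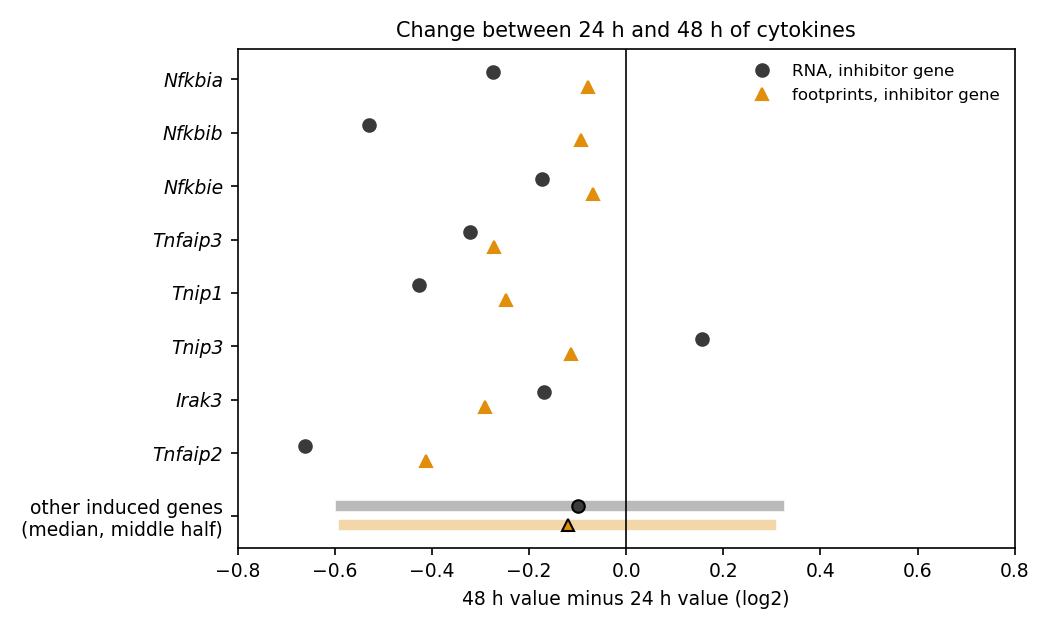
Difference between the 48 h and 24 h log2 values of the 8 genes in RNA (circles) and footprints (triangles), with the median (outlined symbol) and interquartile range (bar) of 455 other genes whose RNA value was at least 2 at 24 h. All points but the RNA of Tnip3 lie below 0, and none beyond -0.66.

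Other genes of the pathway are given by lists drawn up by role, with earlier results of these data known. Of 5 NF-kB subunits 4 passed 1 in RNA at 24 h (median 1.84), from Rela at 0.33 to Relb at 2.49 in the authors' deposited table. Relb, the partner of p52 in the noncanonical pathway, was also past 1 in translation efficiency, where the authors' deposited table has 1.00 and 1.08. Of 11 kinases of the IKK complex and around it, 3 were higher and 0 lower (median 0.39), from Tab1 at -0.81 to Ikbke at 2.78 in the authors' deposited table. Map3k14, the kinase NIK of the noncanonical pathway, is listed in the authors' deposited table with RNA of -0.15 and -0.38, footprints of 1.33 and 1.31 and translation efficiency of 1.49 and 1.78, so that, as for Nfkbib, footprints passed 1 and RNA did not. Among 19 receptors and adaptors 5 were higher and 1 lower (median 0.27), from Traf1 at -2.85 to the ubiquitin ligase gene Birc3 at 3.64 in the authors' deposited table, and Traf5 was at -1.09 in translation efficiency at 48 h. Traf2, chosen after its values were seen, likewise had footprints past 1 (1.10 at both times) and RNA within 1 (0.43 and 0.27). Its translation efficiency was 0.57 and 0.75 in the authors' deposited table.

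The list of other negative regulators held 24 genes, of which Il1r2, Il1rn, Sigirr and Socs1 were not in the authors' deposited table. Of the 20 measured, 1 was higher and 1 lower in RNA at 24 h, with a median of 0.23. These counts lie near the shares of all genes, 7.54% higher and 9.55% lower, and so say little about these regulators as a list. The higher was Zc3h12a, whose product degrades inflammatory mRNAs, which the authors' deposited table has at 2.83 (RNA) and 3.36 (footprints) at 24 h. The lower was Pdlim2, which codes for a nuclear ubiquitin ligase for RelA, with an RNA value of -1.90 at 24 h per the authors' deposited table. The deubiquitinase genes Cyld (0.66) and Otulin (0.06) and the A20 partner genes Tax1bp1 (0.27), Itch (0.17) and Rnf11 (0.30), chosen after their values were seen, all stayed within 1 in RNA at 24 h in the authors' deposited table. Among 4 measured atypical I-kappa-B genes, Nfkbiz was at 4.30 and Bcl3, chosen likewise, at 3.02 in RNA at 24 h in the authors' deposited table, and Ankrd42 (-0.24) and Nfkbil1 (0.06), the latter chosen likewise, were within 1.

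Target genes of NF-kB that are no inhibitors were counted in the same way. Of 18 measured, 17 passed 1 in RNA at 24 h, as 7.54% of all genes did. The median of the 18 was 7.89, from Bcl2l1 at -0.48 to Saa3 at 11.74 in the authors' deposited table. Their median translation efficiency was -0.54 at 24 h and -0.56 at 48 h. At each time 8 of 18 were lower by at least 1, against 0 of the 8 members and 1.32% and 1.71% of all genes. The members include Tnfaip2, which is not known as a core inhibitor. At 24 h the translation efficiencies of these 8 in the authors' deposited table were -3.61 for the acute-phase gene Saa3, -3.22 for Ccl20, -1.82 for Ccl5 and -1.70 for Cxcl1, which code for chemokines, -2.35 for Csf3 and -1.61 for Il6, which code for cytokines, -1.70 for the protease gene Mmp9 and -1.75 for Nos2, which makes nitric oxide. In RNA at 24 h these 8 target genes lay from 6.84 (Il6) to 11.74 (Saa3), above every member (highest Tnip3, 6.12). Ccl2, Cxcl10, Cxcl2 and Lcn2 also lay above 6.12 and were not lower by 1 in translation efficiency. Target genes within the RNA range of the members (Sod2, Icam1, Vcam1, C3 and Ptgs2) had translation efficiencies from -0.54 to 0.12 at 24 h. The lists thus differ in the size of the RNA change, and their difference in translation efficiency was not tested. Ptgs2, the target gene nearest to a member, is listed in the authors' deposited table at 5.58 and 5.14 (RNA), 5.17 and 4.79 (footprints) and -0.44 and -0.41 (translation efficiency), beside -0.43 and -0.22 for Tnfaip2.

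Of all genes, those with the most similar pattern were sought by the Euclidean distance over 4 log2 values (RNA and footprints at both times), and the 2 nearest are given for each member. Ptges (0.33) and Mab21l3 (0.36) lay nearest to Nfkbia, and Dennd3 (0.20) and Spint2 (0.29) to Nfkbib. For Nfkbie they were 1700112E06Rik (0.40) and Rgs8 (0.43), for Tnfaip2 Ptgs2 (0.22) and H2-Q7 (0.34), and for Tnfaip3 Sphkap (0.35) and Susd2 (0.45). Map3k8 (0.19) and Plaur (0.26) were nearest to Tnip1, Pik3r5 (0.49) and Ifi205 (0.75) to Tnip3, and Nod2 (0.37) and Susd2 (0.38) to Irak3. Beside translation efficiencies of 0.71 and 1.18 for Nfkbib, those at 24 h and 48 h in the authors' deposited table were 0.24 and 0.64 for Dennd3 and 0.99 and 1.26 for Spint2. For Dennd3 the same source has RNA of 1.01 and 0.49 and footprints of 1.62 and 1.55. Its deposited translation efficiency thus lies well below its footprints minus RNA at both times and is uncertain. H2-Q7 has near-identical paralogs, so its value is uncertain.

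Nfkbia and Irak3 also appear on the authors' deposited sheet of 67 apoptosis genes, with values equal to those of the main table. From the highest of the 67 in RNA at 24 h, Irak3 ranked 2 and Nfkbia 5, and in translation efficiency they ranked 62 and 48. A further sheet of examples gives Irak3 as 31-fold (4.98) in RNA, 24-fold (4.29) in footprints and -0.52 in translation efficiency at 24 h. The main table has 4.58 for footprints at 24 h, which is 23.9-fold, and 4.29 at 48 h, which is 19.5-fold. The fold on that sheet therefore equals the 24 h value and the log2 number beside it the 48 h value of the authors' deposited table.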

How the data were processed

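RNA-seq and ribosome profiling of 18 libraries (6 groups of 3 batches, A, B and C) were made by the authors. TopHat2, featureCounts and mm10 are named in the submitters' processing notes. Their versions, the normalization, and how batches were combined into folds are not given in the sources used here. What the authors deposited are log2 fold changes against untreated cells, 1 per gene and comparison, per the file headers. The scale of the translation efficiency columns is not named, and they were read as log2, since 79.5% of genes at 24 h and 78.0% at 48 h lie within 0.1 of footprints minus RNA. The deposited sheet of examples mixes p-values of gene sets with folds in words, and only its folds for Irak3 were used.

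No values per library were used, so depth and precision are unknown and no test was made. Genes were called by the size of the log2 value, past 1 or -1 (2-fold). A planned count test for values per library did not apply. Gene names were matched by symbol and identifier (8 of 8 members), and positions and promoters came from RefSeq on GRCm38.p6. The named genes are the 8 members, the 2 nearest genes to each, the highest and lowest gene in RNA at 24 h of 6 pathway lists with any past the limit in translation efficiency, and some chosen after their values were seen, as marked, together with Tnip2, Adgre1, Cd68, Tmem119, Aldoc and Slc1a2. Il1r2, Il1rn, Sigirr and Socs1 are named as listed genes that were not measured. Members and lists were chosen with earlier results of these data known. Computation used python 3.11.15, numpy 2.4.6, pandas 2.3.3 and matplotlib 3.10.9, and counting, distances and motif search were tested on simulated data. Alternatives were other size limits, centring on the median gene, footprints minus RNA in place of the deposited efficiency, and other motif settings.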

Additional observations from a re-analysis of the deposited data

How the results depend on the processing

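No paired analysis was possible because the values are 1 log2 fold change per gene and comparison, without values for batches A, B and C, and for the same reason no batch could be left out. With a size limit of 0.5, 3 members passed in translation efficiency at 24 h in place of 0 (Nfkbib and Tnip3 higher, Irak3 lower; 21.9% of all genes passed), and 2 in place of 1 at 48 h (Nfkbib higher, Irak3 lower; 26.4% of all genes). In RNA at 48 h minus 24 h, 2 passed in place of 0 (Nfkbib and Tnfaip2, both lower; 6.76% of all genes). With a limit of 2, 0 members passed in translation efficiency at 48 h (0.475% of all genes). The other counts stayed within 1.5 times: 6 with a limit of 0.5, 8 with a limit of 2 and all 9 after subtracting the median of all genes, which moved no member's value by more than 0.1. Taking footprints minus RNA as translation efficiency left all 3 counts as they were and moved 3 of 24 member values by more than 0.1, those of Tnip3 at 24 h (0.30) and 48 h (0.03) and of Irak3 at 24 h (-0.40). Members with a kappaB match numbered 6 also with 250 bases before the start alone, and 7 with the looser motif. How the untreated level of a gene near 0 entered the folds is unknown.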
